A study of Mus musculus with 6 samples.

Results

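The 10 genes described here encode the transforming growth factor beta (TGF-beta) ligands, their receptors and the Smad proteins that carry the signal into the nucleus. They were taken by gene symbol from the per-mouse expression tables, as the 3 ligand genes Tgfb1, Tgfb2 and Tgfb3, the 3 receptor genes Tgfbr1, Tgfbr2 and Tgfbr3, and the 4 Smad genes Smad2, Smad3, Smad4 and Smad7, and they make up 10 of 55076 rows. RNA-seq was run on the anterior prostate (AP) of male mice at 20 weeks of age, with 1 library per mouse. OEx mice (n = 3) carried Pbsn-Cre and Rosa26 N1ICD/+, so that the Notch1 intracellular domain (N1ICD), the active form of the Notch1 receptor, was over-expressed where the probasin promoter drives Cre, which is the prostate epithelium. Ctrl mice (n = 3) carried the same Rosa26 N1ICD/+ allele without Cre, and the labels give them as wild type. The transgene thus sits in the epithelium, whereas the libraries hold the RNA of the whole lobe with its stroma. Levels are FPKM as deposited, fragments per kilobase of transcript with a scaling between mice, so different genes are compared per length. That scaling did not follow the number of reads recovered in each mouse, as described below.

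TGF-beta ligands are secreted in a latent form and bind, once released, to the type II receptor Tgfbr2, which recruits and phosphorylates the type I receptor Tgfbr1. Tgfbr1 phosphorylates Smad2 and Smad3, which join Smad4 and enter the nucleus, whereas Smad7 is induced by the pathway and blocks the receptor. In the prostate the pathway is known for holding back epithelial growth and for shaping the smooth muscle and fibroblasts of the stroma.

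Of the 10 genes, only Tgfbr1 was called in OEx mice under the criteria used throughout, an FDR under 0.05 and a fold change over 2, and it rose 2.92-fold in mean FPKM. No member was called lower. The nearest was Tgfbr3, whose mean level in Ctrl mice was 2.00 times that in OEx mice, with an FDR under 0.05 and a log2 fold change of -0.92, short of the fold criterion. The ligands, Tgfbr2 and the 4 Smad genes passed neither way. Over all 12553 rows tested, 12.8% were called higher and 15.5% lower, 67.4% had an FDR under 0.05 and 72.5% had groups that did not overlap. All 10 members passed the filter on low values. Among them 2 had an FDR under 0.05 and 3 had groups that did not overlap on the deposited scale, Tgfb2, Tgfbr1 and Tgfbr3. The median log2 fold change of the members was -0.03, beside -0.07 over all rows tested.

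The libraries were sequenced to a like depth, from 14772005 to 18655462 reads on genes as recovered from the FPKM values, and 9 members rested on 162 to 2587 reads per mouse. The reads behind Smad2 could not be recovered as whole numbers with the annotation used here. Within each group, mice 1 and 2 were much closer to each other than to mouse 3. Their log2 values correlated over genes at r = 0.991 in both groups, against 0.950 to 0.965 for pairs with mouse 3. They differed beyond counting noise (chi-square per degree of freedom 3.67 in OEx and 2.93 in Ctrl), which cannot by itself show that they are separate mice. Within that noise lay 79.0% of genes in OEx and 80.8% in Ctrl, against 42.0% to 48.9% for pairs with mouse 3. They were counted as separate mice because the labels give them so. Seminal vesicle marker genes took 3.04% of the summed FPKM of Ctrl mouse 3 and under 0.001% in each other mouse. Notch1 read 41.9, 47.6 and 78.9 FPKM in OEx and 5.18, 5.55 and 3.34 FPKM in Ctrl mice, a level that cannot separate the transgene from the gene. The luminal epithelial markers expected of this tissue had summed levels of 3158 to 6219 FPKM in OEx and 16639 to 20460 FPKM in Ctrl mice. Pbsn, whose promoter drives the Cre, made up most of the Ctrl sums, at 14220 to 18407 FPKM, and was at 1795 to 4497 FPKM in OEx mice. On the deposited scale 4 of the 6 luminal markers lay lower in every OEx mouse than in every Ctrl mouse. The other 2, Epcam and Cdh1, lay higher, with log2 fold changes of 0.45 and 0.63. The basal epithelial markers summed to 3.72 to 5.32 FPKM in OEx and 99.4 to 122 FPKM in Ctrl mice, and 3 of 3 were called lower.

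The scaling between mice bears on the size of every fold change between groups given here and on the direction of some. The deposited values sum to between 253965 and 272224 FPKM in OEx mice and between 467138 and 529972 FPKM in Ctrl mice, and on the deposited scale 1604 rows were called higher and 1941 lower. Scaling each mouse to the same sum gave 4376 higher and 445 lower and moved the median log2 fold change of all rows from -0.07 to 0.66. Changes of the members are therefore also given relative to the median of all rows. That relative change ran from 1.40 to 1.42 for Tgfbr1 and from -0.85 to -0.75 for Tgfbr3 over the 4 scalings tried. With equal sums, 7 of the 10 members had an FDR under 0.05, namely Tgfb2, Tgfbr1, Tgfbr2 and the 4 Smad genes, all higher, beside 70.6% of all rows in either direction. Group overlap moved with the scale too. In CPM, here recovered reads relative to the total recovered in a mouse, every OEx mouse lay above every Ctrl mouse for Tgfb2, Tgfbr1, Tgfbr2, Smad3, Smad4 and Smad7, as it did for 59.1% of 12467 rows, and 16.1% of rows lay wholly below. Tgfb1, Tgfb3 and Tgfbr3 overlapped on that scale.

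**Figure D1:**
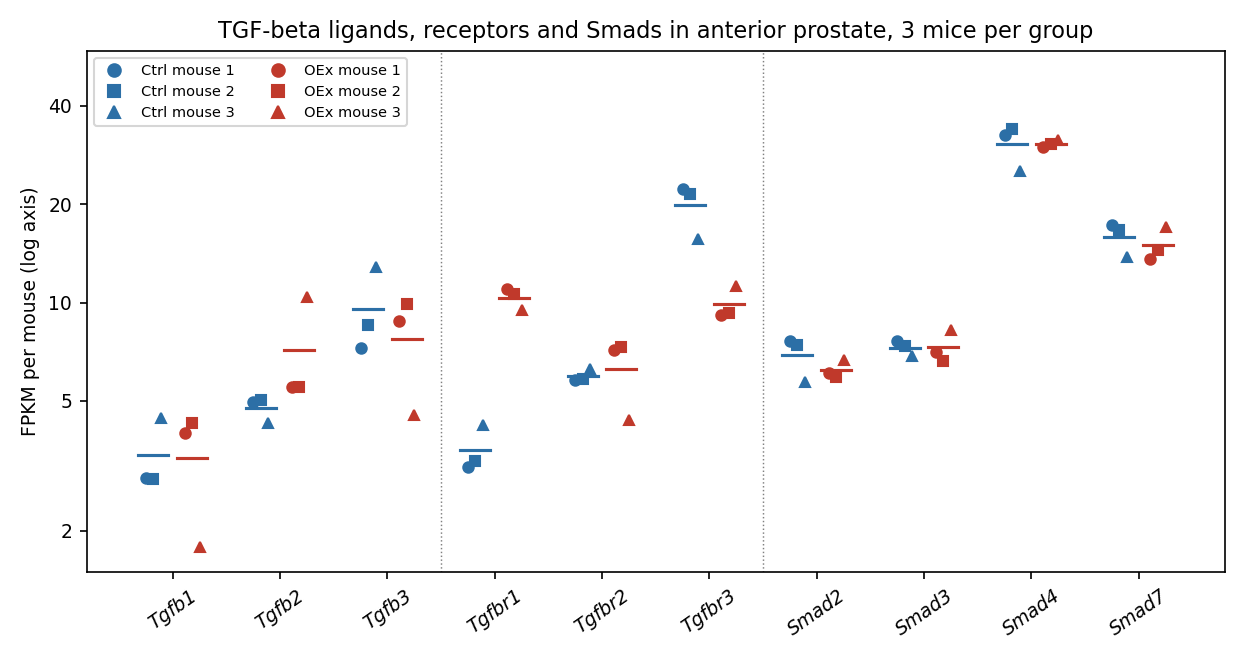
FPKM (log axis) of the 3 ligand, 3 receptor and 4 Smad genes in each of 3 Ctrl (blue) and 3 OEx (red) mice, with the mouse number as the symbol and the group mean as a bar. Tgfbr1 lies at 9.46 to 11.0 FPKM in OEx and 3.14 to 4.21 FPKM in Ctrl mice, Tgfbr3 is lower in the 3 OEx mice, and mouse 3 (triangles) stands apart for the ligands and Tgfbr2.

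Among the ligands, Tgfb3 had the highest mean in Ctrl mice, and Tgfb1 had the lowest mean of all 10 members in both groups. In Ctrl mouse 3, however, Tgfb1 read above Tgfb2 (4.28 FPKM) and Tgfbr1 (4.21 FPKM). Tgfb1, the ligand best known for restraining immune cells and driving fibrosis, read 3.99, 4.28 and 1.78 FPKM in OEx mice 1 to 3 and 2.90, 2.88 and 4.44 FPKM in Ctrl mice 1 to 3. Mouse 3 was the lowest of the OEx mice and the highest of the Ctrl mice, and the groups overlapped. The log2 fold change was -0.06 with a standard error of 0.276 and a 95% interval from -0.72 to 0.60 (limma, FDR = 0.868).

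Tgfb3, a ligand known from palate and epithelial development, read 8.76, 9.91 and 4.54 FPKM in OEx mice and 7.25, 8.56 and 12.8 FPKM in Ctrl mice. As with Tgfb1, the groups overlapped, with the lowest value in OEx mouse 3 and the highest in Ctrl mouse 3. The log2 fold change of -0.30 had a standard error of 0.302 and a 95% interval from -1.02 to 0.43 (limma, FDR = 0.413). Annotated genes overlap Tgfb3, among them the protein-coding Ttll5 on the other strand, and their reads cannot be told apart because the strand setting of the counting is unknown here. Within a mouse the log2(FPKM + 1) level of Tgfb1 minus that of Tgfb3 lay between -1.05 and -0.97 in OEx and between -1.35 and -1.08 in Ctrl mice. This was a shift of 0.24 with no overlap on that scale. The exact two-sided permutation test of this shift gave p = 0.1, the smallest that 3 against 3 mice allow, and an adjusted p of 0.24 over the 12 pairs of members compared. With 0.1 added to the FPKM values in place of 1, the shift was again 0.24. The exact two-sided permutation test then gave p = 0.2, so the separation was lost.

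Tgfb2, the ligand that depends most on the co-receptor Tgfbr3 for binding, read 5.53, 5.50 and 10.4 FPKM in OEx mice and 4.97, 5.03 and 4.28 FPKM in Ctrl mice. Every OEx mouse lay above every Ctrl mouse, and the distance was small except for OEx mouse 3. The log2 fold change was 0.45 with a standard error of 0.229 and a 95% interval from -0.10 to 0.999 (limma, FDR = 0.123), and it was 0.18 without OEx mouse 3. With each mouse scaled to the same sum of FPKM, Tgfb2 was called higher, at 1.21 (limma, FDR = 0.00253), which is 0.55 relative to the median of all rows. An antisense gene and a small nucleolar RNA gene overlap Tgfb2, which lies at chr1:186622792-186705989 on the minus strand (GRCm38), and whether the counting used strand was not given in the sources used here, so their reads cannot be told apart.

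The make-up of the ligand pool set OEx mouse 3 apart. Tgfb2 held 62.3% of the summed ligand FPKM there, against 27.9% to 30.3% in the other OEx mice and 19.9% to 32.9% in Ctrl mice. Tgfb1 and Tgfb3 held 10.6% and 27.1% in that mouse. The summed ligand level was 18.2 ± 1.48 FPKM in OEx and 17.7 ± 3.38 FPKM in Ctrl mice (SD, n = 3), and the groups overlapped in the sum and in each ligand's share.

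On the deposited scale the receptors held the 2 largest differences of the 10 genes, in opposite directions, whereas with equal sums of FPKM the difference of Tgfbr3 was the smallest of the 10. Tgfbr1, the type I receptor kinase, read 11.0, 10.6 and 9.46 FPKM in OEx mice and 3.14, 3.27 and 4.21 FPKM in Ctrl mice. The lowest OEx mouse was well above the highest Ctrl mouse, and each group was tight. Means were 10.4 ± 0.793 FPKM in OEx and 3.54 ± 0.581 FPKM in Ctrl mice (SD, n = 3), and the log2 fold change was 1.33 with a standard error of 0.119 and a 95% interval from 1.04 to 1.61 (limma, FDR = 1.36e-04). On the log2(FPKM + 1) scale such a value understates the change of a low gene. The rise held on every alternative that was run, with log2 fold changes from 1.25 to 2.08 and FDR values from 1.35e-05 to 0.00649. The gene lies at chr4:47353222-47414931 on the plus strand (GRCm38), and no other annotated gene overlaps it. The number of cells that carry a transcript and the amount of it per cell cannot be told apart in these bulk libraries, for Tgfbr1 as for each gene below.

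Tgfbr3, or betaglycan, the co-receptor that presents ligand to Tgfbr2, read 9.15, 9.29 and 11.3 FPKM in OEx mice and 22.3, 21.5 and 15.7 FPKM in Ctrl mice. The groups did not overlap, and mouse 3 of each group lay nearest to the other group. In recovered reads they did overlap, at 80.2, 81.7 and 90.04 CPM in OEx mice and 106, 103 and 83.7 CPM in Ctrl mice. Means were 9.90 ± 1.18 FPKM in OEx and 19.8 ± 3.61 FPKM in Ctrl mice (SD, n = 3), and the log2 fold change of -0.92 had a standard error of 0.154 and a 95% interval from -1.29 to -0.55 (limma, FDR = 0.00186). Tgfbr3 passed the fold criterion without OEx mouse 3 (-1.01), without Ctrl mouse 3 (-1.08) and without both (-1.16), and missed it in the other 14 alternatives. With each mouse scaled to the same sum of FPKM its log2 fold change was -0.08 (limma, FDR = 0.704), and with the 20 most abundant rows left out of the sum it was -0.31 (limma, FDR = 0.159). It lies at chr5:107106570-107289629 on the minus strand (GRCm38) and contains 4 small annotated genes.

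Tgfbr2, the type II receptor that binds ligand first, read 7.16, 7.29 and 4.38 FPKM in OEx mice and 5.80, 5.85 and 6.25 FPKM in Ctrl mice. OEx mouse 3 was the lowest of the 6 mice, and the other OEx mice were the highest. The log2 fold change was 0.04 with a standard error of 0.178 and a 95% interval from -0.39 to 0.46 (limma, FDR = 0.868). Its FDR was under 0.05 with equal sums of FPKM (0.81, limma, FDR = 0.0102), where its change relative to the median of all rows was 0.15.

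The balance among the receptors within a mouse does not depend on the scaling between mice apart from the pseudocount, and it shifted from Tgfbr3 towards Tgfbr1. Tgfbr1 held 40.2%, 39.0% and 37.7% of the summed receptor FPKM in OEx mice and 10.1%, 10.7% and 16.1% in Ctrl mice. Tgfbr3 held 33.5%, 34.1% and 44.9% in OEx mice and 71.4%, 70.2% and 60% in Ctrl mice. Neither share overlapped between the groups, and the share of Tgfbr2 did. The summed receptor level was 26.5 ± 1.24 FPKM in OEx and 29.3 ± 2.78 FPKM in Ctrl mice (SD, n = 3), with overlap.

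On the log2(FPKM + 1) scale the difference Tgfbr1 minus Tgfbr3 within a mouse moved from -2.19 ± 0.443 in Ctrl to 0.06 ± 0.254 in OEx mice (SD, n = 3), a shift of 2.25. The difference Tgfbr1 minus Tgfbr2 shifted by 1.29 and Tgfbr2 minus Tgfbr3 by 0.96. On that scale none of the 3 differences overlapped between groups. Each gave p = 0.1 in the exact two-sided permutation test and 0.24 after adjustment over 12 pairs, so the design cannot bring them under 0.05. For Tgfbr2 minus Tgfbr3 the gap was narrow, with OEx mouse 3 at -1.19 and Ctrl mouse 3 at -1.20. With a pseudocount of 0.1 that pair gave p = 0.2 in the exact two-sided permutation test, so its separation was lost. The differences of Tgfbr1 from Tgfbr2 and from Tgfbr3 kept p = 0.1 in the exact two-sided permutation test. Leaving out any 1 mouse left the shift of Tgfbr1 minus Tgfbr3 between 2.10 and 2.51.

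**Figure D2:**
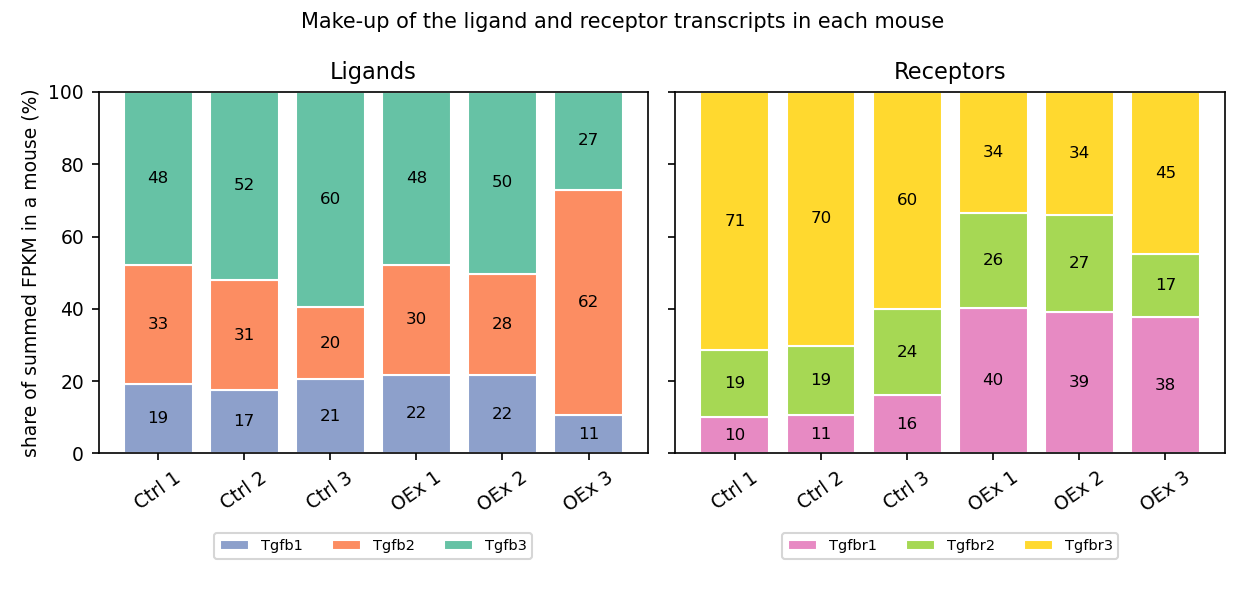
Share of the summed ligand FPKM (left) and of the summed receptor FPKM (right) held by each gene, in percent, with 1 bar per mouse. Tgfbr1 makes up 37.7% to 40.2% of the receptor sum in OEx and 10.1% to 16.1% in Ctrl mice, and OEx mouse 3 is the mouse in which Tgfb2 makes up most of the ligand sum.

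On the deposited scale none of the Smad genes had an FDR under 0.05. With equal sums of FPKM all 4 did, with log2 fold changes of 0.65 for Smad2, 0.80 for Smad3, 0.89 for Smad4 and 0.77 for Smad7 and FDR values from 7.33e-04 to 0.00636 (limma), all under the fold criterion. On that scale the median of all rows was itself 0.66, and 70.6% of all rows had an FDR under 0.05. Relative to that median the changes were -0.01 for Smad2, 0.13 for Smad3, 0.22 for Smad4 and 0.11 for Smad7. Smad4, the common partner of the receptor-activated Smads, was the most abundant member in both groups and read 30.0, 30.5 and 31.4 FPKM in OEx and 32.6, 34.0 and 25.3 FPKM in Ctrl mice. The OEx mice fell inside the Ctrl range. The log2 fold change was 0.01 with a 95% interval from -0.28 to 0.30 (limma, FDR = 0.944).

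Smad2 and Smad3 are the substrates of Tgfbr1. Smad2 read 6.07, 5.90 and 6.67 FPKM in OEx and 7.64, 7.42 and 5.73 FPKM in Ctrl mice, with a log2 fold change of -0.13 and a 95% interval from -0.42 to 0.16 (limma, FDR = 0.375). Smad3 read 7.07, 6.61 and 8.24 FPKM in OEx and 7.62, 7.34 and 6.85 FPKM in Ctrl mice, with a log2 fold change of 0.00 and a 95% interval from -0.24 to 0.25 (limma, FDR = 0.984). For both genes the groups overlapped, and mouse 3 was the highest OEx mouse and the lowest Ctrl mouse. Within a mouse Smad2 minus Smad4 on the log2 scale was lower in the OEx mice without overlap, by a shift of -0.14 (exact two-sided permutation test, p = 0.1, adjusted p = 0.24), and the other 5 Smad pairs overlapped.

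Smad7, the inhibitory Smad and itself a target of the pathway, read 13.6, 14.5 and 17.0 FPKM in OEx and 17.3, 16.7 and 13.8 FPKM in Ctrl mice. Mouse 3 again lay towards the other group, and the groups overlapped. The log2 fold change was -0.08 with a standard error of 0.123 and a 95% interval from -0.37 to 0.22 (limma, FDR = 0.597).

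**Figure D3:**
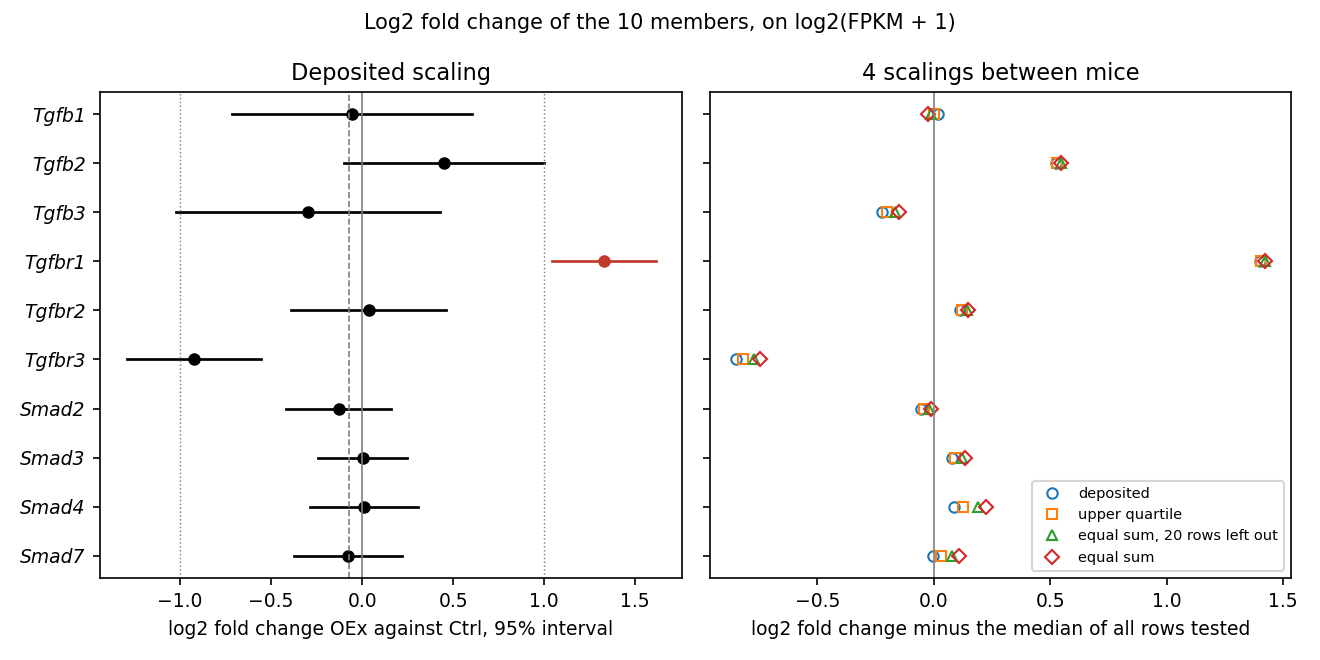
Left, log2 fold change of each member with its 95% interval on the deposited scale, with dotted lines at the fold criterion, a dashed line at the median of all rows (-0.07) and the called gene in red. Right, the same fold changes minus the median of all rows under 4 scalings between mice, where Tgfbr1 lies at 1.40 to 1.42 and Tgfbr3 at -0.85 to -0.75.

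These opposite movements reordered the members. In Ctrl mice the order of mean levels was Smad4, Tgfbr3, Smad7, Tgfb3, Smad3, Smad2, Tgfbr2, Tgfb2, Tgfbr1 and Tgfb1. The neighbours Tgfbr3 and Smad7, the run from Tgfb3 to Tgfbr2, and the pair Tgfbr1 and Tgfb1 overlapped between neighbours. In OEx mice Tgfbr1 moved from rank 9 to rank 3 and Tgfbr3 from rank 2 to rank 4, at levels that overlapped each other. In the OEx order the neighbours from Tgfbr1 at rank 3 down to Smad2 at rank 9 overlapped, so only Smad4, Smad7 and Tgfb1 stood clear of their neighbours.

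Several marker lists moved with mouse 3 and with the groups. The 7 fibroblast markers summed to 249, 251 and 30.3 FPKM in OEx mice and 86.3, 82.3 and 143 FPKM in Ctrl mice, and 0 of 7 were called. Col1a1 and Col3a1 weighed most in OEx mouse 1, at 75.4 and 83.9 FPKM, beside 11.4 and 8.21 FPKM in Ctrl mouse 1. The log2 fold changes were positive for Col1a1, Col3a1 and Lum and negative for Pdgfra, Dcn, Vim and Thy1, with a median of -0.25. Thy1 was lower in every OEx mouse than in every Ctrl mouse. The 3 immune markers tested of 7 listed summed, with the 4 others included, to 33.7, 33.7 and 8.25 FPKM in OEx mice and 8.56, 8.40 and 15.9 FPKM in Ctrl mice, and 0 were called. Both sums were lowest in OEx mouse 3 and higher in Ctrl mouse 3 than in its group mates, as were Tgfb1, Tgfb3 and Tgfbr2 among the members, and the part of these cells in those values was not tested. The level of Tgfbr1 in OEx mouse 3 was 9.46 FPKM beside 11.0 and 10.6 FPKM in the other OEx mice, and its fibroblast sum was the lowest of all 6 mice.

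The 6 smooth muscle markers summed to 419 to 505 FPKM in OEx and 1252 to 2671 FPKM in Ctrl mice, and 6 of 6 fell, the median log2 fold change being -1.66. Of the 6 endothelial markers 1 was called lower, with sums of 7.51 to 9.02 FPKM in OEx and 19.4 to 26.0 FPKM in Ctrl mice. Of the 6 luminal markers 2 were called lower, and 2 others, Epcam and Cdh1, lay higher in every OEx mouse. Of the 4 seminal vesicle markers tested 0 were called. Between groups, on the deposited scale, Tgfbr3 was lower where the smooth muscle, endothelial, basal and luminal sums were lower. With equal sums of FPKM the log2 fold change of Tgfbr3 was -0.08, and its CPM values overlapped between groups. As shares of the summed FPKM of a mouse, these marker sums stayed lower in OEx mice. The endothelial share was 0.00276% to 0.00355% there and 0.00415% to 0.00490% in Ctrl mice. Within groups the order of the mice was shared for the basal sum in OEx mice and not otherwise. Ctrl mouse 3 had the lowest Tgfbr3 level of the Ctrl mice, 15.7 FPKM, with the highest smooth muscle (2671 FPKM), endothelial (26.0 FPKM) and basal (122 FPKM) sums. OEx mouse 3 had the highest Tgfbr3 level of the OEx mice, 11.3 FPKM, with the lowest smooth muscle (419 FPKM) and endothelial (7.51 FPKM) sums and the highest basal sum (5.32 FPKM). The part of these cells in the Tgfbr3 values was not tested.

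**Figure D4:**
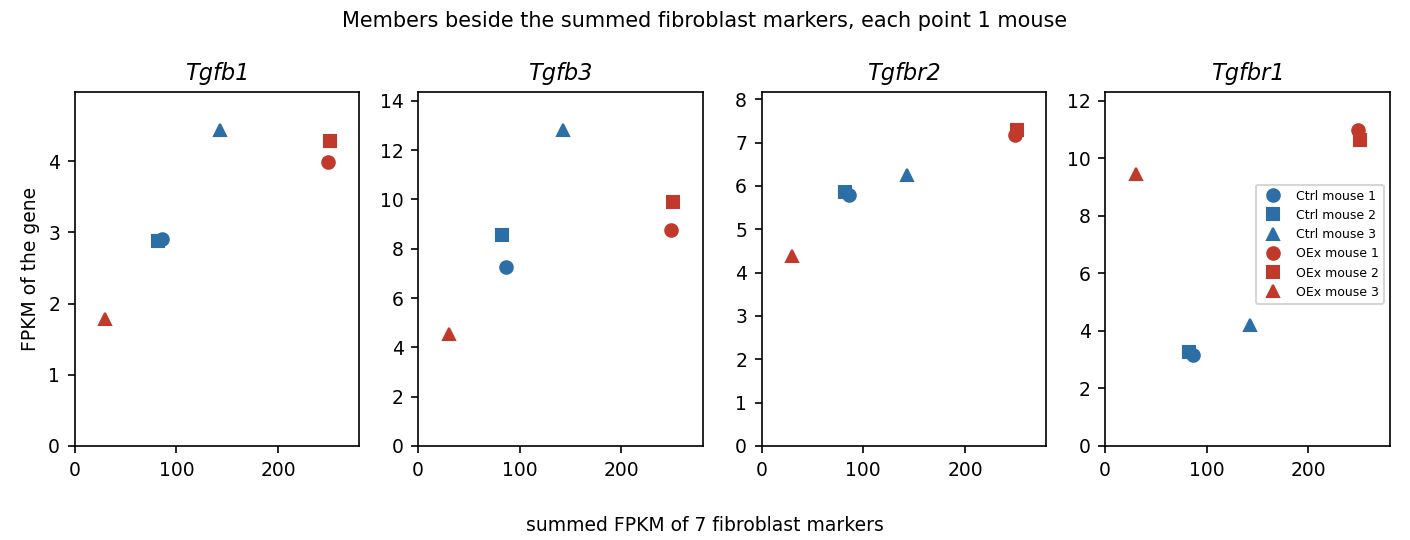
FPKM of Tgfb1, Tgfb3, Tgfbr2 and Tgfbr1 against the summed FPKM of 7 fibroblast markers, with 1 point per mouse, Ctrl in blue and OEx in red. Col1a1 and Col3a1 hold the largest parts of that sum in OEx mice 1 and 2. OEx mouse 3, at a marker sum of 30.3 FPKM, is the lowest mouse for Tgfb1, Tgfb3 and Tgfbr2, whereas its Tgfbr1 level of 9.46 FPKM lies with the other OEx mice.

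N1ICD acts on DNA through the factor RBPJ, whose core motif is TGGGAA, and the promoters of Tgfbr1, the called member, and of Smad3, a substrate of it that was not called, are shown to set the windows side by side. The 250 bases before the annotated start were taken from RefSeq on GRCm38.p6, and a TGGGAA match on either strand (TTCCCA on the other) is in capitals.
Tgfbr1, chr4:47352972-47353221, plus strand: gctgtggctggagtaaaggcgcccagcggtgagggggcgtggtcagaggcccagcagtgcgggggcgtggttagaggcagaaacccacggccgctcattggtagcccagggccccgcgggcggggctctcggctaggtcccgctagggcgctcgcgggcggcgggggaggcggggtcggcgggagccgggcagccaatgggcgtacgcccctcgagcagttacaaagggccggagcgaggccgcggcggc
Smad3, chr9:63757995-63758244, minus strand: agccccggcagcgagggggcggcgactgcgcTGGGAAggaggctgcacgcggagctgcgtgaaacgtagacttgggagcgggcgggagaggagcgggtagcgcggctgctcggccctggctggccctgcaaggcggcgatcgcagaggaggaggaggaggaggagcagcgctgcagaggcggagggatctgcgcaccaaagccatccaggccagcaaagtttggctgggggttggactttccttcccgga
The motif letters were found in 1 of 6 windows of the 5 members matched, that of Smad3, and in neither window of Tgfbr1. Over all 32851 promoter windows of this length, 21.6% held the motif, and its presence or absence in a window is a description and no evidence of binding. The Tgfbr1 window shown was 74.8% G and C and held 29 CG pairs, beside medians of 52.4% and 6 over all windows.

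The other genes of the pathway were described from 4 lists that share a few genes, without the members. Of 66 genes listed, 58 were tested, 9 were called higher and 10 lower, and the median log2 change was 0.31 beside -0.07 over all rows. The shares called, 15.5% higher and 17.2% lower, lie near those of all rows, 12.8% and 15.5%, against which each list below is also to be read. With an FDR under 0.05 and no fold criterion, 20 of the 58 rose and 16 fell, beside 3875 and 4584 of all 12553 rows. With equal sums of FPKM per mouse 23 were called higher and 2 lower, which is 39.7% and 3.45%, beside 34.9% and 3.54% of all rows. Without OEx mouse 3 the counts were 17 and 9, which is 29.3% and 15.5%, beside 13.3% and 15.5% of all rows.

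Of 13 genes tested that keep TGF-beta latent, bind it or release it, 3 were called higher and 2 lower, with a median of 0.51. The latent TGF-beta binding proteins, which tether the latent ligand to the matrix, went opposite ways. Ltbp1 read 3.82, 3.75 and 6.97 FPKM in OEx mice and 0.725, 0.663 and 1.03 FPKM in Ctrl mice, which gave a log2 fold change of 1.66 ± 0.223 (SE; limma, FDR = 7.21e-04). Ltbp4 read 11.3, 11.1 and 11.1 FPKM in OEx mice and 55.2, 55.1 and 74.7 FPKM in Ctrl mice, which gave a log2 fold change of -2.35 ± 0.132 (SE; limma, FDR = 3.42e-05). In both genes every OEx mouse lay clear of every Ctrl mouse.

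Ltbp2, a binding protein of the same family, rose from 0.584 ± 0.178 to 6.88 ± 4.57 FPKM (SD, n = 3), with OEx mouse 3 at 1.61 FPKM against 9.24 and 9.80 FPKM in the others. Itgb8, the integrin chain that activates latent TGF-beta, rose from 0.365 ± 0.0601 to 2.16 ± 0.0426 FPKM (SD, n = 3), which gave a log2 fold change of 1.21. Furin, the protease that cleaves the TGF-beta precursor, fell from 22.7 ± 5.88 to 7.91 ± 0.763 FPKM (SD, n = 3), which gave a log2 fold change of -1.38. These 5 calls were kept when any 1 mouse was left out, and that of Furin was lost in 2 of the 3 other scalings.

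Among 14 receptors, ligands and antagonists of the wider superfamily, 2 were called higher and 2 lower, with a median of 0.06. Bmpr1b, a type I receptor for bone morphogenetic proteins (BMPs), rose from 5.40 ± 0.304 to 23.6 ± 5.91 FPKM (SD, n = 3), which gave a log2 fold change of 1.92 (limma, FDR = 1.21e-04). Acvr2a, a type II activin receptor, rose by 1.01 (limma, FDR = 4.15e-04), a value at the fold criterion that fell under it without OEx mouse 3, Ctrl mouse 1 or Ctrl mouse 3, the lowest being 0.93. Bmp7, a BMP ligand, had 11.0, 11.4 and 11.6 FPKM in OEx mice and 47.5, 47.0 and 34.6 FPKM in Ctrl mice, which gave a log2 fold change of -1.82 (limma, FDR = 7.08e-05). Acvrl1, the type I receptor of endothelial cells, had a log2 fold change of -1.04 (limma, FDR = 0.0267), and the call was lost without OEx mouse 3 (-0.72), without Ctrl mouse 3 (-0.79) and in the 3 other scalings.

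Of 15 other Smads and Smad regulators tested, 0 were called higher and 2 lower, with a median of 0.41. With limma, 7 of them rose and 4 fell at an FDR under 0.05 with no fold criterion, beside 3875 and 4584 of all 12553 rows. Both called genes belong to the BMP side of the family. Smad9, a Smad activated by BMP receptors, read 0.205, 0.204 and 0.640 FPKM in OEx mice and 3.66, 4.17 and 2.87 FPKM in Ctrl mice, which gave a log2 fold change of -1.76 (limma, FDR = 2.24e-04). Smad6, the inhibitory Smad of the BMP pathway, read 4.11, 5.29 and 4.96 FPKM in OEx mice and 13.9, 13.7 and 16.02 FPKM in Ctrl mice, which gave a log2 fold change of -1.43 (limma, FDR = 9.09e-05). In both the groups were far apart, and Smad9 was called in all 3 other scalings and Smad6 in 1. Skil, a repressor of Smad-driven transcription, had 3.03 ± 0.412 FPKM in OEx and 2.04 ± 0.350 FPKM in Ctrl mice (SD, n = 3), with a log2 fold change of 0.41 (limma, FDR = 0.0322), under the fold criterion.

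Of 20 TGF-beta target genes tested, Smad7 included, 4 were called higher and 4 lower, with a median of 0.58. Among the classical targets OEx mouse 3 stood apart from the other OEx mice. Ccn2, a matricellular growth factor listed as Ctgf, read 41.2, 37.4 and 8.23 FPKM in OEx mice and 26.4, 27.0 and 40.1 FPKM in Ctrl mice, which gave a log2 fold change of -0.36 (limma, FDR = 0.604). Tgfbi, a matrix protein named for its induction by TGF-beta, read 7.27, 6.98 and 1.44 FPKM in OEx mice and 2.12, 3.46 and 4.01 FPKM in Ctrl mice, which gave a log2 fold change of 0.40 (limma, FDR = 0.488). In both genes OEx mouse 3 was the lowest of the 6 mice.

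The 4 targets called higher were matrix genes and cell cycle inhibitors. Postn, the matrix protein periostin, read 10.7, 9.86 and 3.37 FPKM in OEx mice and 0.707, 0.994 and 1.72 FPKM in Ctrl mice, which gave a log2 fold change of 1.97 (limma, FDR = 0.00438). Fn1, fibronectin, had a log2 fold change of 1.47 (limma, FDR = 0.0322), but its groups overlapped, with 9.68 FPKM in OEx mouse 3 and 10.5 FPKM in Ctrl mouse 3, and the call was lost without OEx mouse 1, OEx mouse 2, Ctrl mouse 1 or Ctrl mouse 2, the lowest value being 1.16. Cdkn2b, the inhibitor p15 that TGF-beta induces in epithelial cells, read 5.88, 7.24 and 3.43 FPKM in OEx mice and 1.04, 0.556 and 2.84 FPKM in Ctrl mice, which gave a log2 fold change of 1.46 (limma, FDR = 0.0127). Cdkn1a, the inhibitor p21, had a log2 fold change of 1.29 (limma, FDR = 0.00470). It was named because it completes the 4 and not by the rule for named genes.

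The 4 targets called lower included the contractile genes Acta2 (-1.84) and Tagln (-1.59), which are also 2 of the 6 smooth muscle markers, so they are not separate from that list. Id3, an inhibitor of DNA binding that BMPs induce, read 55.4, 58.1 and 84.4 FPKM in OEx mice and 201, 194 and 216 FPKM in Ctrl mice, which gave a log2 fold change of -1.64 (limma, FDR = 2.24e-04). Junb, an AP-1 factor, had a log2 fold change of -1.62 (limma, FDR = 0.00597), with 26.6 FPKM in OEx mouse 3 and 199 FPKM in Ctrl mouse 3. The calls of Id3 and Junb were made in 1 of the 3 other scalings and kept when any 1 mouse was left out. Tagln was named to complete the 4.

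Without OEx mouse 3, 9 genes of the 4 lists were called higher that were not called with it, and Acvr2a was lost. They included the collagen genes Col1a1 (2.47) and Col1a2 (1.91), Fbn1 (1.99), Pmepa1 (1.63), Thbs1 (1.43), Nedd4l (1.09), Lrrc32 (1.08) and Nrros (1.06), where each value is the log2 fold change without that mouse. These were named after their values were seen. OEx mouse 3 was the mouse with the low fibroblast and immune sums given above, Col1a1 is itself one of the 7 fibroblast markers, and the part of these cells was not tested.

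**Figure D5:**
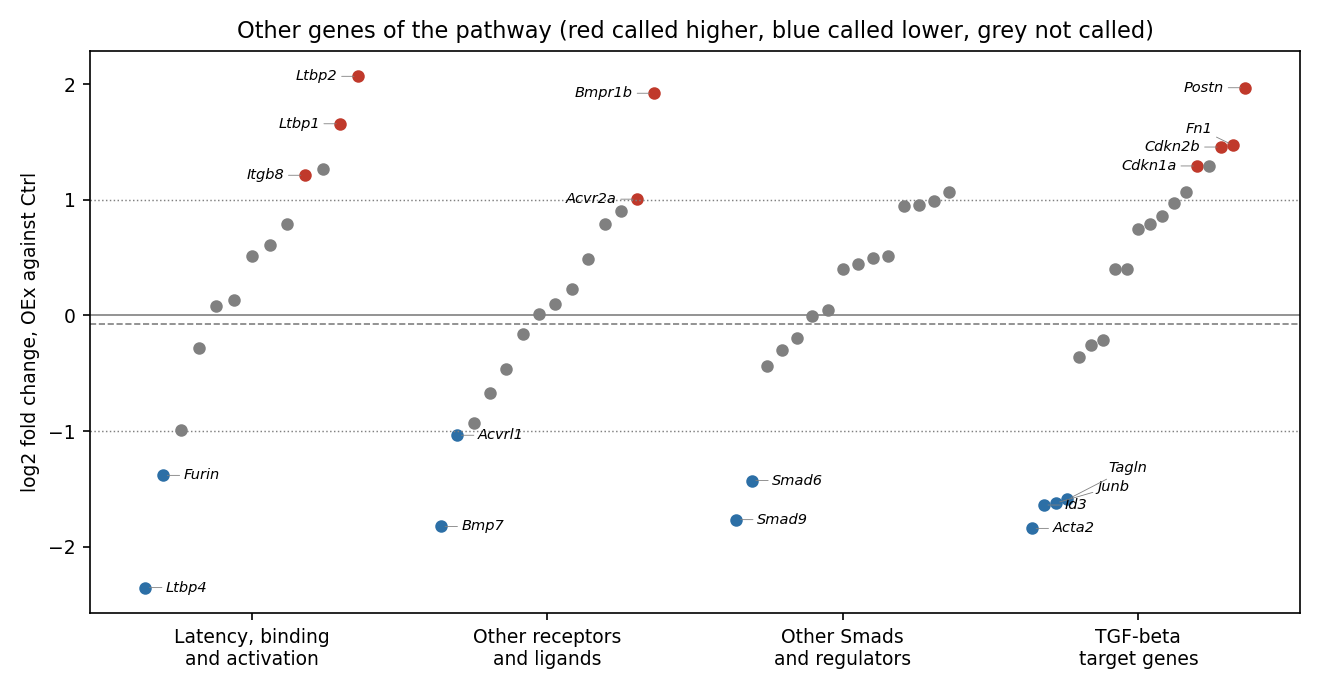
Log2 fold change of the tested genes of the 4 pathway lists without the members, 1 point per gene, red for called higher, blue for called lower and grey for not called, with a dashed line at the median of all rows (-0.07) and dotted lines at the fold criterion. Calls lie on both sides in 3 lists, and in the list of other Smads and regulators the 2 calls, Smad6 and Smad9, are lower.

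The 3 members with the largest absolute log2 fold changes were compared with 4515 rows of at least 10 FPKM for likeness over the 6 mice, as Pearson's r of log2(FPKM + 1). The nearest rows to Tgfbr1 were Csnk2a1, Hnrnpdl and Tardbp, with r of 0.999, 0.998 and 0.998, and 155 rows lay above r = 0.98. The nearest rows to Tgfbr3 were Epn3, Atf6b and Aldh18a1, each with r of 0.999, and 424 rows lay above r = 0.98. For Tgfb2 they were Tgoln1, Rnase1 and Dhx40, with r of 0.996, 0.995 and 0.991, and 10 rows lay above r = 0.98. With 6 mice that share 2 groups and a scaling, such values are a description of the pattern only.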

How the data were processed

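For each of the 3 OEx and 3 Ctrl mice the authors deposited a table of FPKM values by gene symbol. The submitters' processing notes name featureCounts 1.5.0-p3, StringTie 1.3.3b, HISAT2 2.0.5 and CASAVA. Genome build, annotation and strand setting were not given in the sources used here. The 544 rows without a gene name (0.632% to 1.21% of the summed FPKM) stayed out of tests. Reads were recovered from FPKM and the exon lengths of a GENCODE annotation of GRCm38, and 96.9% to 97.5% of values up to 1000 reads came out whole within 0.05 of a read. The FPKM denominator per recovered read was 1.22 to 1.34 in OEx and 0.726 to 0.815 in Ctrl mice, so the deposited values carry a scaling between mice. Size factors, the median over genes of a mouse's reads relative to the geometric mean of all mice, were 1.10 to 1.40 in OEx mice. In Ctrl mice they were 0.767 to 0.929. The denominators, 18051147 to 22868194 in OEx and 12510317 to 15195712 in Ctrl mice, were nearly proportional to them. The limma-voom fit used these factors and is no independent check of the deposited scaling.

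The groups were compared on log2(FPKM + 1) with limma 3.58.1 (R 4.3.3, eBayes with a trend), using 12553 rows whose mean reached 1 FPKM, with Benjamini-Hochberg adjustment over all of them. Calls needed an FDR under 0.05 and a fold change over 2, as in the study. On simulated data for this comparison the fit recovered 200 of 200 changed genes and wrongly called 9 others. The simulated mice were independent with the same relative spread, none stood apart from its group, and 200 of 12467 rows changed, all beyond the fold criterion. That check therefore does not cover the distance of mouse 3 from its group mates, or smaller changes. Single values were also compared by exact two-sided permutation tests, which cannot go below 0.1 here. Nothing but the labels says that the samples are separate mice, and p-values measure only the spread between them.

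Members, lists and tests were chosen with earlier results of these data known. The 4 pathway lists hold genes of latency, binding and activation, other receptors and ligands, other Smads and Smad regulators, and target genes. Marker lists cover fibroblasts, smooth muscle, endothelium, immune cells, luminal and basal epithelium and seminal vesicle. Named genes are the 10 members, up to 3 called genes in each direction per pathway list, Ccn2, Tgfbi, Smad6, Skil, Ltbp1, Notch1 and the 3 rows most like each of 3 members. One more gene under the rule is not reported here. Others were named after their values were seen. Alternatives covered the pseudocount, filter, scaling, trend, fold criterion, a replicate block, each mouse left out and limma-voom on recovered reads. Averaging mice 1 and 2 of each group, and leaving out mouse 3 of both, were added after seeing the data.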

Additional observations from a re-analysis of the deposited data

How the results depend on the processing

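Over 17 alternatives Tgfbr1 kept its call. The members called higher numbered 2, Tgfbr1 and Tgfb2, with equal sums of FPKM per mouse and also with equal sums over all rows but the 20 most abundant. The members called lower numbered 1, Tgfbr3, without mouse 3 of both groups and with no fold criterion, and 0 to 1 when 1 mouse was left out. Of the other pathway genes, 9 were called higher and 10 lower on the deposited scale. The number called higher was 3 of 31 tested with a filter of 5 FPKM, beside 670 of 7120 rows. With the equal sums it was 23 and 21, beside 4376 and 3401 of 12553 rows. Upper-quartile scaling gave 15, beside 2311 rows, and limma-voom gave 14 of 57 tested, beside 2251 of 12467 rows. It was 20 without mouse 3 of both groups and 20 with no fold criterion, beside 1768 and 3875 rows. When 1 mouse was left out it was 7 to 17, beside 1569 to 1671 rows. The number called lower was 2 and 5 with the equal sums, beside 445 and 656 rows. It was 16 with no fold criterion, beside 4584 rows. When 1 mouse was left out it was 9 to 11, beside 1910 to 1963 rows.

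Members that were not called changed sign in several alternatives. With equal sums, equal sums without the top 20 rows and upper-quartile scaling, the log2 fold changes were 0.64, 0.45 and 0.17 for Tgfb1, 0.65, 0.44 and 0.12 for Smad2, and 0.77, 0.54 and 0.20 for Smad7, and with the equal sums they were 0.51 and 0.29 for Tgfb3. Without mouse 3 of both groups they were 0.40 for Tgfb1, 0.22 for Tgfb3, -0.11 for Smad3 and -0.14 for Smad4. With mice 1 and 2 averaged they were -0.081 for Tgfbr2 and 0.012 for Smad7. With 1 mouse left out they ran from -0.22 to 0.24 for Tgfb1, from -0.49 to 0.0036 for Tgfb3, from -0.072 to 0.24 for Tgfbr2, from -0.076 to 0.063 for Smad3 and from -0.12 to 0.090 for Smad4, and the shifts within a mouse from -0.080 to 0.083 for Smad3 minus Smad4 and from -0.81 to 0.059 for Tgfb1 minus Tgfb2. The cause was not tested. Mice 1 and 2 of a group were so alike that fits without mouse 3 may understate the spread.

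The labels do not say whether the replicate numbers pair the mice. The deviations of same-numbered mice correlated at -0.20, -0.19 and -0.31. Because mouse 3 stood apart from its group mates in both groups, these values cannot decide whether the mice are paired. With the replicate block 1 member, Tgfbr1, was called higher (1.33, limma, FDR = 0.00364) and 0 lower. The other pathway genes gave 7 higher and 9 lower, beside 1565 and 1906 of all 12553 rows.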
